A study of Mus musculus with 6 samples.

Results

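Replication-dependent histone genes were described here as the rows of the expression table that are annotated as protein coding and whose symbol begins with Hist1h, Hist2h, Hist3h or Hist4h. This rule found 67 of 41214 genes. The cells were explants of mouse mammary tumors of NMuMG origin (a mammary epithelial line of the mouse), and they carried Neu-NT, an activated ErbB2 receptor, in all 6 libraries. The genotype label divides them into Neu-NT shCdGAP (3 libraries), depleted by a short hairpin RNA of CdGAP, which switches off the GTPases Cdc42 and Rac1 and is encoded by Arhgap31, and Neu-NT shCON (3 control libraries). The cell type label reads shCTL in the shCdGAP libraries too, so the groups rest on the genotype label and the titles. All cells were grown in DMEM with serum, insulin and G418. The labels give neither the number of cultures behind a group nor whether a hairpin line was 1 clone. The p-values therefore speak of the spread between libraries, part or all of which may be technical.

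Replication-dependent histone genes encode the H2A, H2B, H3 and H4 proteins of the nucleosome core and the H1 linker histones, and they sit in clusters in which H2A and H2B genes often share a promoter region and are read in opposite directions. Dividing cells express them mainly in S phase, when new DNA needs new nucleosomes. Their messenger RNAs usually end in a short stem-loop in place of a poly(A) tail. The stem-loop binding protein SLBP holds this loop, the U7 small nuclear ribonucleoprotein directs the cut behind it, and some of these genes also make longer, polyadenylated transcripts from sites further downstream.

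The stem-loops are shown first because they mark the class of transcript. The consensus of the histone stem-loop, 16 bases with arms that pair around a loop, was searched on the sense strand of GENCODE M21 transcripts. It was held by 42 of the 65 members found in that annotation, against 0.137% of 21837 other protein-coding genes. Members without it had short annotated models, such as Hist1h4k (312 bases) and Hist1h2bl (381), or long ones, such as Hist1h2br (2197). A short model may end before the loop, so a missing pattern need not mean a missing stem-loop. In the lines below the 16 capitals mark the stem-loop, and 5 bases stand on each side.
Hist1h1c: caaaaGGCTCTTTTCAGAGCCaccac
Hist3h2a: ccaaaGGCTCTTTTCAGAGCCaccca
Hist1h4i: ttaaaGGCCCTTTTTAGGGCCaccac
Hist4h4: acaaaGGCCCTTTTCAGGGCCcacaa
The core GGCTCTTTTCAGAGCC was the commonest, in 24 members. Annotated transcripts of the members with most reads ran on well past the loop: by 840 bases in Hist1h1c, 1643 in Hist3h2a, 330 in Hist1h4i and 1861 in Hist1h2be. So did those of some members with few reads in all libraries together: by 2445 bases in Hist4h4 (33 reads) and 2010 in Hist1h2ac (15 reads). In Hist1h2bc and Hist2h2be no annotated transcript held the pattern, which says only that these letters are not in those models.

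Reads were found for 57 of the 67 members, but most were barely detected. FPKM is the number of reads scaled to the length of the gene model and the depth of the library, and 61 members had a mean under 0.5 FPKM over the 6 libraries. Only 4 reached 1 FPKM, whereas 51.1% of all genes with reads did. The 10 members without a single read were Hist1h1a, Hist1h1t, Hist1h2aa, Hist1h2ao, Hist1h2bf, Hist1h2bq, Hist1h2br, Hist2h2aa1, Hist2h3c1 and Hist3h2ba. A count of 0 allows up to 3 reads in a library. Only 6 members had enough reads to be tested (10 depth-scaled reads or more in 3 or more libraries): Hist1h1c, Hist1h2bc, Hist1h2be, Hist1h4i, Hist2h2be and Hist3h2a. These 6 held 91.3% of the 6093 reads on members.

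**Figure D1:**
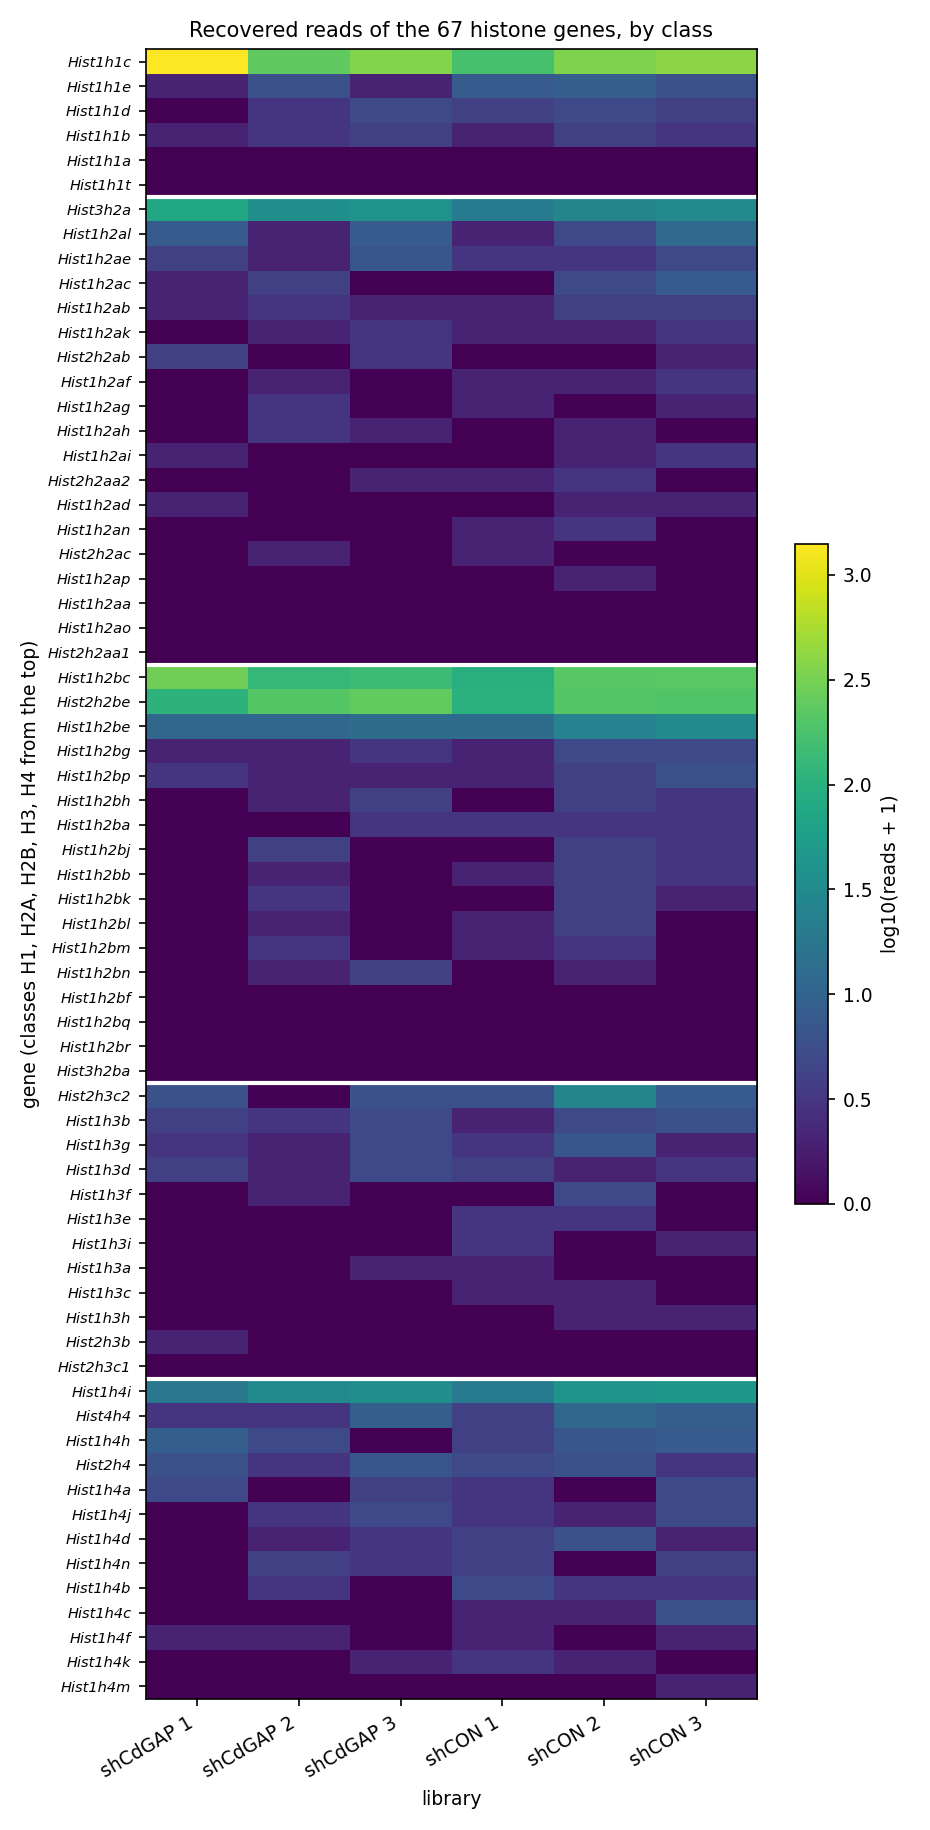
Recovered reads of the 67 histone genes (rows, ordered by class and then by total reads) in the 6 libraries (columns), as log10(reads + 1) in colour. A few genes per class carry nearly all reads, and the brightest cell is Hist1h1c in shCdGAP replicate 1 with 1400 reads.

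The classes were unevenly covered. The 6 H1 genes held 48.7% of member reads, nearly all from Hist1h1c, which encodes a linker histone. The 17 H2B genes held 38.0%, mostly from Hist1h2bc and Hist2h2be. The 19 H2A genes held 5.68%, the 13 H4 genes 5.73% and the 12 H3 genes 1.90%. No H3 gene could be tested, although H3 is as much a part of each nucleosome as H2B. The best covered H3 gene was Hist2h3c2, with 5, 0 and 5 reads in shCdGAP replicates 1, 2 and 3 and 5, 26 and 7 in shCON. By cluster, 55 members belong to Hist1, 9 to Hist2, 2 to Hist3 and 1 to Hist4. The Hist1 cluster held 77.0% of member reads and Hist2 held 18.7%.

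Members with most reads had long gene models. The lengths the authors used were recovered from their values. They ran from 727 to 4374 bases (median 1853) for the 6 tested members and from 312 to 2879 bases (median 463) for the 51 with reads below the filter. Of 16 members with a model of 700 bases or more, 6 were tested, and of 41 shorter ones none was. The cut of 700 bases lies just under the shortest tested model (727 bases), so the second count follows from where the cut was set. The filter is on reads, of which a longer model collects more. Per length, the median of the mean FPKM was 0.151 for models of 700 bases or more and 0.0943 for shorter ones, among which Hist1h2al was the highest at 0.548. Long models with low levels were Hist1h2be (4374 bases, 0.153 FPKM) and Hist4h4 (2879 bases, 0.0763 FPKM).

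**Figure D2:**
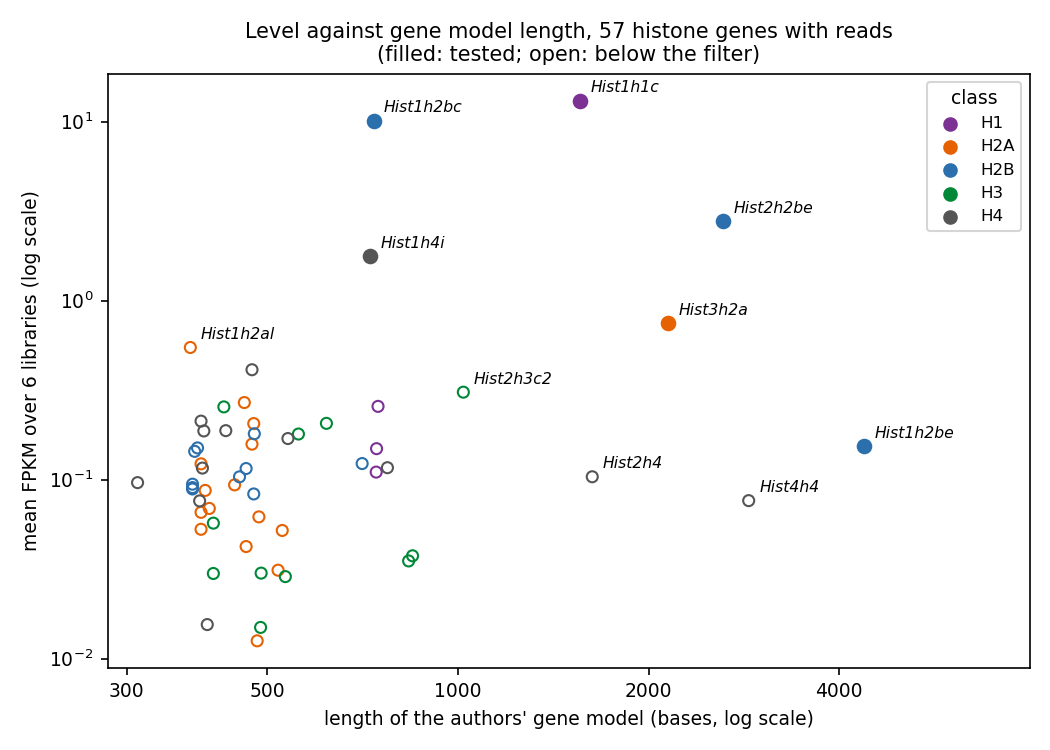
Mean FPKM over the 6 libraries (vertical, log scale) against the length of the authors' gene model in bases (horizontal, log scale) for the 57 histone genes with reads, coloured by class. Filled points are the 6 tested genes, all at 727 bases or more, and open points lie below the filter on reads.

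Histone genes resemble each other in sequence, so their reads are hard to assign. Of the 65 members in the annotation, 34 shared at least 50% of their 50-base stretches with transcripts of other genes, overlapping annotated genes included. The tested members shared less: their highest value was 31.5% (Hist3h2a) and Hist2h2be shared 0%. The median was 58.0% in the 49 annotated members with reads below the filter and 77.2% in the 10 without reads. Of 12 members below 20%, 3 were tested and 2 had no reads, and the highest mean FPKM among the 9 untested was 0.212. Shares refer to whole GENCODE M21 transcripts, which are longer than the authors' models in some members. Hist1h2ac, at 14.1%, had 2482 bases there against 476 in the authors' model. Low shares therefore need not hold for the bases that were counted. How the authors' counting treated reads that fit several places is not given in the sources used here. Values of the highly similar members are therefore uncertain.

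A library that stands apart touches the comparison. Across tested genes, shCdGAP replicate 1 correlated at 0.948 and 0.938 with replicates 2 and 3 of its group, while every other pair within a group was above 0.990. Total reads ranged from 19176540 to 26824249 per library. The hairpin target Arhgap31 had 0.149, 0.826 and 0.748 FPKM in shCdGAP and 1.19, 1.30 and 1.35 in shCON, so the groups did not overlap (limma log2 fold change on the log2(FPKM + 1) scale -0.56, SE 0.19, adjusted p = 0.084). The epithelial keratins Krt8 and Krt18 were at 1491 FPKM or more in every library. Other epithelial markers differed between the groups. Cdh1 had 184, 152 and 167 FPKM in shCdGAP and 37.9, 56.9 and 57.2 in shCON. Epcam had 0 reads in each shCdGAP library and 32, 29 and 31 reads in shCON. Summed levels, in reads per 1000000 (CPM), were 6.45 to 17.6 in shCdGAP and 18.9 to 24.0 in shCON for 8 immune markers, 3.32 to 6.82 and 5.55 to 6.52 for 8 fibroblast markers, and 0 to 0.173 and 1.31 to 1.51 for 6 endothelial markers. No reads were found for 1, 2 and 1 of these in turn and for 1 of 12 epithelial markers. The part of all these markers in the histone values was not tested. Limma called 2 of 8 tested epithelial markers higher and 2 lower, 1 of 3 immune markers higher and 1 lower, and 0 of 2 fibroblast and 0 of 1 endothelial markers (1 marker, the endothelial one, at an unadjusted p under 0.05).

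The main comparison asked whether histone members differed between CdGAP-depleted and control cells. None of the 6 tested members passed limma's test at an adjusted p of 0.05 (1 was at an unadjusted p under 0.05), whereas 21.0% of 13483 tested genes passed in either direction (9.92% higher and 11.1% lower in shCdGAP) and 34.6% were at an unadjusted p under 0.05. In 2 of the 6 the groups did not overlap, against 44.1% of all tested genes. The median log2 fold change of the 6 was 0.14, with 4 above and 2 below 0, and that of all tested genes was -0.01. With 6 members, these counts say nothing particular to histones.

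Hist1h1c (chr13:23738808-23740367, plus strand, 1 exon; GENCODE M21, build GRCm38) had the highest level of any member. Its values were 39.2, 6.92 and 9.44 FPKM in shCdGAP replicates 1, 2 and 3 and 5.61, 8.06 and 9.46 FPKM in shCON. Replicate 1 of shCdGAP lay far above all other libraries, and replicates 2 and 3 lay within the control range. The difference was therefore smaller than the spread (18.5 ± 18.0 against 7.71 ± 1.95 FPKM, SD, n = 3 each; limma log2 fold change 0.80, SE 0.61, adjusted p = 0.41). Without shCdGAP replicate 1 the log2 fold change was 0.088. In shCdGAP replicate 1 the gene took 71.6% of all member reads (exact 95% binomial interval 69.6 to 73.6%). In the other 5 libraries it took 33.9 to 39.7%. Intervals here cover counting error only.

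Hist1h2bc (chr13:23684199-23692908, plus strand, 2 exons), an H2B gene of the Hist1 cluster, had 17.1, 7.55 and 7.82 FPKM in shCdGAP and 6.68, 10.6 and 11.0 FPKM in shCON. Here too shCdGAP replicate 1 was the highest library, while replicates 2 and 3 lay between shCON replicate 1 and the other controls. The limma log2 fold change was 0.12 with an SE of 0.34 (adjusted p = 0.84). Without shCdGAP replicate 1 it was -0.24 (adjusted p = 0.37).

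Hist2h2be (chr3:96221119-96223738, plus strand, 1 exon), the H2B gene that carries most reads of the Hist2 cluster, went the other way in that library. It had 1.80, 3.60 and 3.72 FPKM in shCdGAP and 2.02, 2.82 and 2.77 FPKM in shCON. Replicates 2 and 3 of shCdGAP were above all controls and replicate 1 was below them. With all 6 libraries the log2 fold change was 0.16 (SE 0.23, limma adjusted p = 0.67). Without shCdGAP replicate 1 it was 0.41 and passed the threshold (limma adjusted p = 0.045), in a fit that called 39.9% of all tested genes.

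Hist3h2a (chr11:58954685-58956830, plus strand, 1 exon), an H2A gene of the small Hist3 cluster, had non-overlapping groups. Its values were 1.55, 0.764 and 0.750 FPKM in shCdGAP and 0.458, 0.441 and 0.540 FPKM in shCON. The group means, 1.02 ± 0.457 and 0.480 ± 0.0530 FPKM (SD, n = 3 each), stood in a ratio of 2.13. The log2 fold change was 0.43 (SE 0.16, unadjusted p = 0.034, limma adjusted p = 0.11), higher in 3 of 3 libraries. In the authors' deposited table it is the 1 member at an adjusted p under 0.05 (log2 fold change 0.99, adjusted p = 0.046), where 23.8% of 16970 genes are. Without shCdGAP replicate 1 the log2 fold change fell to 0.25 and the adjusted p from limma to 0.027, in a fit that called 39.9% of all tested genes. Its exons overlap other annotated genes, by at most 708 bases with any single gene. Among them is Trim17, which held 0 to 4 reads per library.

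Hist1h4i (chr13:22040636-22041362, minus strand, 1 exon), the only H4 gene above 1 FPKM, had 1.02, 1.88 and 1.99 FPKM in shCdGAP and 1.35, 2.05 and 2.36 FPKM in shCON. In each group the library numbered 1 was the lowest, and the groups overlapped. The log2 fold change was -0.16 (SE 0.21, limma adjusted p = 0.64).

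Hist1h2be (chr13:23583670-23621124, minus strand, up to 2 exons), a further H2B gene, was lower in every shCdGAP library. It had 0.10, 0.104 and 0.11 FPKM in shCdGAP and 0.142, 0.199 and 0.265 FPKM in shCON. These rest on 10, 10 and 12 reads against 12, 24 and 31. The log2 fold change was -0.12 (SE 0.053, limma adjusted p = 0.17), a scale that understates changes at so low a level, and the ratio of group means was 0.519. In GENCODE M21 the gene shares at most 496 exon bases with any single overlapping neighbour, among them the linker histone gene Hist1h1e. The Hist1h1e transcript has 1930 bases there, against 748 in the authors' model. Whether the models that the authors counted overlap was not tested.

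**Figure D3:**
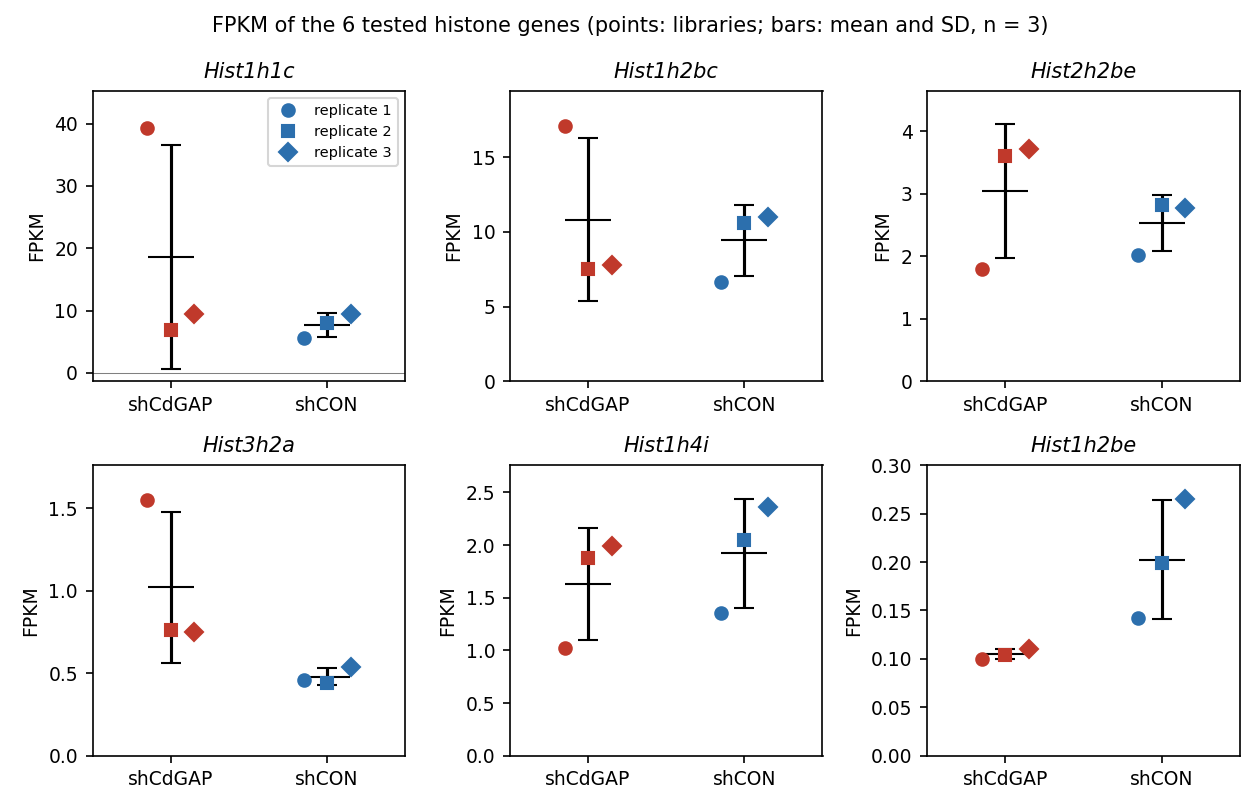
FPKM (vertical, separate linear scales) of the 6 tested histone genes by group; points are libraries, with the replicate number shown by shape, and bars are the mean and SD of 3 libraries. Replicate 1 of shCdGAP is the highest library for Hist1h1c, Hist1h2bc and Hist3h2a and the lowest for Hist2h2be and Hist1h4i.

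The tested members went different ways in the library that stands apart. In shCdGAP replicate 1, relative to the mean of replicates 2 and 3, the FPKM of Hist1h1c was 4.80 times as high, that of Hist1h2bc 2.23 times and that of Hist3h2a 2.05 times. The FPKM of Hist2h2be was 0.493 times and that of Hist1h4i 0.528 times that mean, and that of Hist1h2be 0.932 times. In shCON replicate 1 the FPKM of Hist2h2be and Hist1h4i was also low, at 0.722 and 0.613 times the mean of replicates 2 and 3. On the log2(FPKM + 1) scale the distance of Hist1h1c, 2.15, was matched or passed by 1.59% of tested genes, and that of Hist1h2bc, 1.06, by 8.44%. Distances as large as those of Hist2h2be, Hist3h2a and Hist1h4i were common, at 17.7%, 28.7% and 28.6% of tested genes.

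Genes of the cell cycle were low in the same library. The summed level of 30 S-phase genes was 616 CPM in shCdGAP replicate 1, against 3483 and 3756 in replicates 2 and 3 and 2498 to 3477 in shCON. The 15 proliferation genes summed to 311 CPM there, against 4481 and 4028 in replicates 2 and 3 and 2252 to 3345 in shCON. Replicates 2 and 3 of shCdGAP were thus above every control for this list, and replicate 1 was below. Mki67, a marker of cycling cells, had 4.36, 72.0 and 67.7 FPKM in shCdGAP and 27.3, 40.3 and 40.2 in shCON. The S-phase cyclin gene Ccna2 had 5.35, 107 and 111 in shCdGAP and 41.7, 68.3 and 68.6 in shCON. The library with the lowest S-phase and proliferation levels also had the highest summed level of the 6 tested histone genes, 82.0 CPM against 21.7 to 35.2 in the others. Hist1h1c gave 60.5 of these 82.0 CPM, and the other 5 tested genes summed to 21.6 CPM there against 12.9 to 19.98 in the other libraries. The 61 histone genes that were not tested had their lowest sum in that library, 2.42 CPM. In bulk RNA, fewer cells of a type and less RNA per cell cannot be told apart, and the part of the cell cycle genes in the histone values was not tested.

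**Figure D4:**
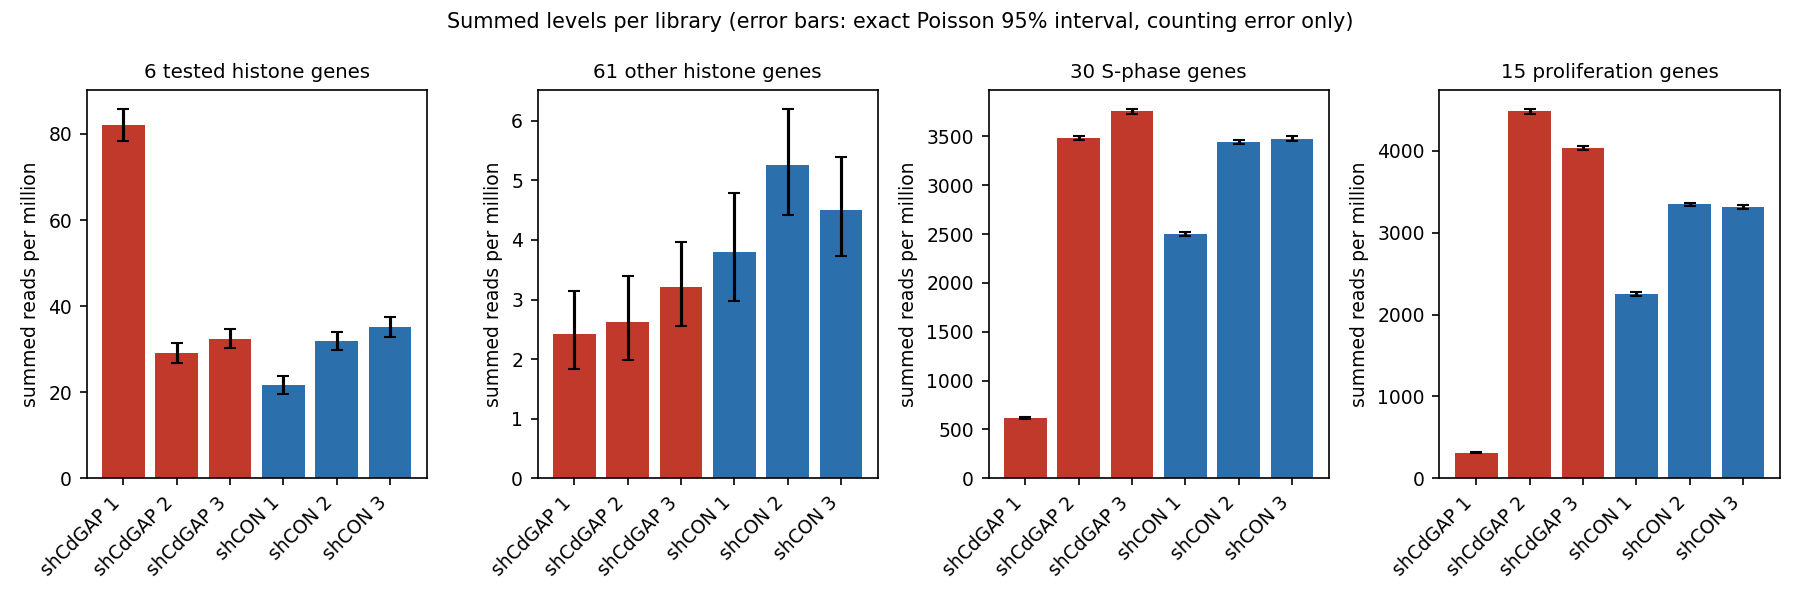
Summed CPM in each library for the 6 tested histone genes, the other 61 histone genes, 30 S-phase genes and 15 proliferation genes (separate scales from 0); error bars are exact Poisson 95% intervals. Replicate 1 of shCdGAP has the highest bar in the first panel, at 82.0, and the lowest in the last 2, at 616 and 311.

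The 61 members that could not be tested one by one were summed. Their summed level was 2.42, 2.63 and 3.21 CPM in shCdGAP replicates 1, 2 and 3, from 56, 58 and 83 reads. In shCON it was 3.81, 5.26 and 4.50 CPM, from 73, 141 and 117 reads. The shCdGAP libraries were all below the controls, but the exact Poisson 95% intervals of shCdGAP replicate 3 (2.55 to 3.97) and shCON replicate 1 (2.98 to 4.79) overlapped. Without Hist2h3c2, which gave 26 reads in shCON replicate 2, the sums were 2.20 to 3.01 in shCdGAP and 3.55 to 4.29 in shCON. The other 8788 genes with reads below the filter had the same order of groups, with 512 to 670 CPM in shCdGAP and 702 to 799 in shCON. Of the 51 histone genes with reads below the filter, 42 had a lower mean in shCdGAP (82.4%), and so did 62.7% of those 8788 genes. No test was made on these sums.

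By class, the summed H4 genes did not overlap between groups, at 1.60, 2.13 and 2.39 CPM in shCdGAP and 2.45, 2.68 and 3.23 in shCON. Groups did not overlap in 44.1% of single tested genes either. Of the 349 H4 reads, 189 came from Hist1h4i, whose own groups overlapped. The gap between the nearest libraries was small against the counting intervals, which reached 3.07 for shCdGAP replicate 3 and down to 1.80 for shCON replicate 1. Summed H3 genes had 0.605, 0.226 and 0.695 CPM in shCdGAP and 0.886, 1.68 and 0.654 in shCON, and overlapped. Summed H2A genes ranged from 2.26 to 4.02 in shCdGAP and from 1.51 to 2.50 in shCON. Summed H2B genes ranged from 15.8 to 17.7 in shCdGAP and from 11.3 to 17.7 in shCON. Summed H1 genes ranged from 11.1 to 60.6 in shCdGAP and from 9.39 to 15.6 in shCON. These classes overlapped too.

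The remaining members among the 10 highest by mean FPKM were Hist1h2al, Hist1h4h, Hist2h3c2, Hist1h2ae and Hist1h1e, with means of 0.548 down to 0.257 FPKM. Hist1h2al, an H2A gene that GENCODE M21 annotates as a processed pseudogene, had 7, 1 and 7 reads in shCdGAP and 1, 4 and 11 in shCON. The H4 gene Hist1h4h had 8, 4 and 0 reads against 3, 6 and 7. The linker histone gene Hist1h1e had 1, 5 and 1 reads in shCdGAP and 7, 8 and 5 in shCON. In FPKM the groups of these 3 genes overlapped, while those of Hist2h3c2 did not, at 0.214, 0 and 0.197 against 0.254, 0.927 and 0.257, a gap between its nearest libraries that rests on 5 reads in each; it did not pass the filter. Hist4h4, the single H4 gene of the Hist4 cluster, had 2, 2 and 8 reads against 3, 10 and 8.

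Among neighbours that share a promoter region, 2 of 12 pairs had clearly unlike levels. The annotation places 12 pairs of members head to head with at most 400 bases between them. In 10 pairs neither gene was tested, and no gene had more than 18 reads over the 6 libraries. In the other 2 a single partner carried the reads: Hist1h2bc had 1080 reads and its partner Hist1h2ac 15, and Hist2h2be had 1056 reads and its partner Hist2h2ac 2. Per length, their mean levels were 10.1 against 0.206 FPKM and 2.79 against 0.0312 FPKM. The authors' model of Hist1h2ac had 476 bases, against 2482 in its GENCODE M21 transcript, so reads further downstream may be missing from its count.

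The stretches between the RefSeq starts of these pairs, of 239 and 191 bases, are shown because they face both a detected and a barely detected gene. GENCODE M21 sets the starts 250 and 238 bases apart, and bases past the RefSeq starts were not searched. The sequences come from RefSeq promoters of build GRCm38.p6 and are given on the minus strand, reading towards the H2A gene. The first is chr13:23683960-23684198 and the second chr3:96220881-96221071. Capitals mark TATAAA (the TATA box), CCAAT and the octamer ATTTGCAT, searched on both strands, so that ATTGG and ATGCAAAT are their reverse complements.
Hist1h2ac and Hist1h2bc: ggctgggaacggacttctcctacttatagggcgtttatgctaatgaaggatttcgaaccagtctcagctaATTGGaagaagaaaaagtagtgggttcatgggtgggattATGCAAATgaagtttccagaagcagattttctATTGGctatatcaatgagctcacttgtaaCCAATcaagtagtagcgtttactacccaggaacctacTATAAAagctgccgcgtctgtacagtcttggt
Hist2h2ac and Hist2h2be: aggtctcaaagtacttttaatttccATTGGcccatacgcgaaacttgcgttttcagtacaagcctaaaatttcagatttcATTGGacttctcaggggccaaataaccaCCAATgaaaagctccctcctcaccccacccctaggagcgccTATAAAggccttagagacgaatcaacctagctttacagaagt
Both hold 1 TATAAA and 3 CCAAT matches, and the first also holds 1 octamer. Of 59 members with a promoter of 250 bases before the start in the RefSeq table, 29 held TATAAA, 48 CCAAT and 11 the octamer, against 12.4%, 33.8% and 1.60% of all 32851 promoters. A match is a description of the letters and not a measured binding site.

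Genes that make, cut or hold histone messenger RNA were tested as a list of 30. In it 2 rose and 28 did not pass limma's test, and the median log2 fold change was -0.08, near the -0.01 of all tested genes. Mblac1, an endonuclease that acts on histone pre-mRNA, rose from 0.158, 0.334 and 0.314 FPKM in shCON to 2.04, 1.29 and 1.57 in shCdGAP, all 3 above every control (log2 fold change 1.05, limma adjusted p = 0.0032). Mif4gd, a partner of SLBP in the translation of histone mRNA, rose from between 11.5 and 11.7 FPKM to 15.1, 18.0 and 16.6 (log2 fold change 0.48, limma adjusted p = 0.019). The call on Mif4gd was lost when any 1 library other than shCdGAP replicate 1 was left out (highest adjusted p = 0.095).

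Slbp, whose product binds the stem-loop, had 5.84, 15.9 and 18.4 FPKM in shCdGAP and 12.9, 16.4 and 16.0 in shCON, lowest in replicate 1 of shCdGAP (limma adjusted p = 0.65). Casp8ap2, which encodes the histone locus body protein FLASH, had the same shape at 1.97, 5.93 and 7.09 FPKM against 5.37, 6.90 and 6.83. Npat, the activator of histone transcription in that body, ranged from 8.27 to 11.8 FPKM over both groups. The U7 particle genes Lsm10 and Lsm11 ranged from 9.35 to 16.9 and from 1.74 to 3.38 FPKM. None of these passed the test.

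Among 30 S-phase genes and 15 proliferation genes none passed limma's main test (4 and 0 were at an unadjusted p under 0.05). The cyclin E gene Ccne1 had 0.444, 5.17 and 7.11 FPKM in shCdGAP and 16.2, 21.0 and 20.4 in shCON. All shCdGAP libraries were below all controls, and limma's adjusted p was 0.053. With the replicate number as a block it was 0.044 and with library size scaling 0.048, so that this gene passed in both fits. Leaving out single libraries moved limma's adjusted p of Ccne1 both ways. It was 0.13, 0.16 and 0.15 without shCON replicates 1, 2 and 3, and 0.094 without shCdGAP replicate 2. Without shCdGAP replicate 3 it was 0.041, and without shCdGAP replicate 1 it was 8.2e-04. E2f1, a transcription factor of S-phase entry, also had groups that did not overlap, with 5.39, 10.6 and 10.3 FPKM against 14.3, 16.3 and 15.6 (adjusted p from limma 0.069). Ccne2, the other cyclin E gene, overlapped at 0.726 to 12.3 against 5.30 to 10.5 FPKM. Without shCdGAP replicate 1, where 39.9% of all tested genes were called, limma called 6 of the 30 S-phase genes higher and 4 lower, the latter including Ccne1 and E2f1, and 7 of the 15 proliferation genes higher.

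Of 15 histone genes outside the replication-dependent clusters, 2 had no reads and 11 were tested; 2 rose and 9 did not pass limma's test, with a median log2 fold change of 0.16. H3f3a, which encodes the replacement histone H3.3, rose from 75.9, 69.0 and 66.9 FPKM in shCON to 131, 102 and 104 in shCdGAP (log2 fold change 0.66, limma adjusted p = 0.018). Leaving out shCON replicate 2 or 3 ended that call (limma adjusted p = 0.086 and 0.085). H2afv, which encodes a form of H2A.Z, rose from 16.0, 16.9 and 18.6 to 30.4, 34.9 and 30.5 FPKM (log2 fold change 0.86, limma adjusted p = 0.0034). H3f3b ranged from 199 to 303 FPKM over both groups, H2afz from 63.1 to 140, and H1f0, the linker histone gene of resting cells, from 276 to 323 in shCdGAP and 364 to 377 in shCON; none of the 3 passed the test.

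H2afx, which encodes the damage-response histone H2A.X and is known to make both stem-loop and polyadenylated messages, held the stem-loop pattern in its annotated transcript. It had 10.2, 62.0 and 53.9 FPKM in shCdGAP and 13.8, 18.0 and 18.4 in shCON. Replicates 2 and 3 of shCdGAP were above all controls and replicate 1 below them, as for Hist2h2be. With all 6 libraries H2afx did not pass (log2 fold change 0.94, SE 0.66, limma adjusted p = 0.37). Without shCdGAP replicate 1 it did (1.74, limma adjusted p = 3.1e-04), in a fit that called 39.9% of all tested genes.

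Among 25 histone chaperone genes none passed the test (2 were at an unadjusted p under 0.05), and the median log2 fold change was -0.06. Those with the highest FPKM were Npm1, at 564 to 724 over both groups, and Nap1l1, at 119 to 165.

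RNAs known to lack a poly(A) tail were scarce too. A list of 16 of them, of which 2 could be tested and 0 passed limma's test (0 at an unadjusted p under 0.05), summed to 1.39 to 1.86 CPM in shCdGAP and 1.66 to 2.24 in shCON. Rn7sk, an abundant nuclear RNA, had 8 to 17 reads per library. The labels name total RNA as the molecule and standard Illumina library preparation, and whether tails were selected is not given in the sources used here. The part of such a step in the low histone levels was not tested.

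The 6 tested members differed in how far their values depended on single libraries and settings. Across 15 alternatives, Hist3h2a stayed above 0 and Hist1h2be below 0 wherever they could be fitted, Hist2h2be stayed above 0, and the other 3 changed sign in some fits without a library numbered 1. Hist1h1c did so only without both such libraries, Hist1h4i only without shCdGAP replicate 1, and Hist1h2bc without either or both. Without both libraries numbered 1, 3 of the 6 passed limma's test, in a fit that called 48.3% of all tested genes: Hist2h2be (0.30) and Hist3h2a (0.24) higher and Hist1h2bc (-0.44) lower. With quantile scaling, which called 21.4% of all tested genes, Hist3h2a was the 1 member that passed (higher, limma adjusted p = 0.047).

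**Figure D5:**
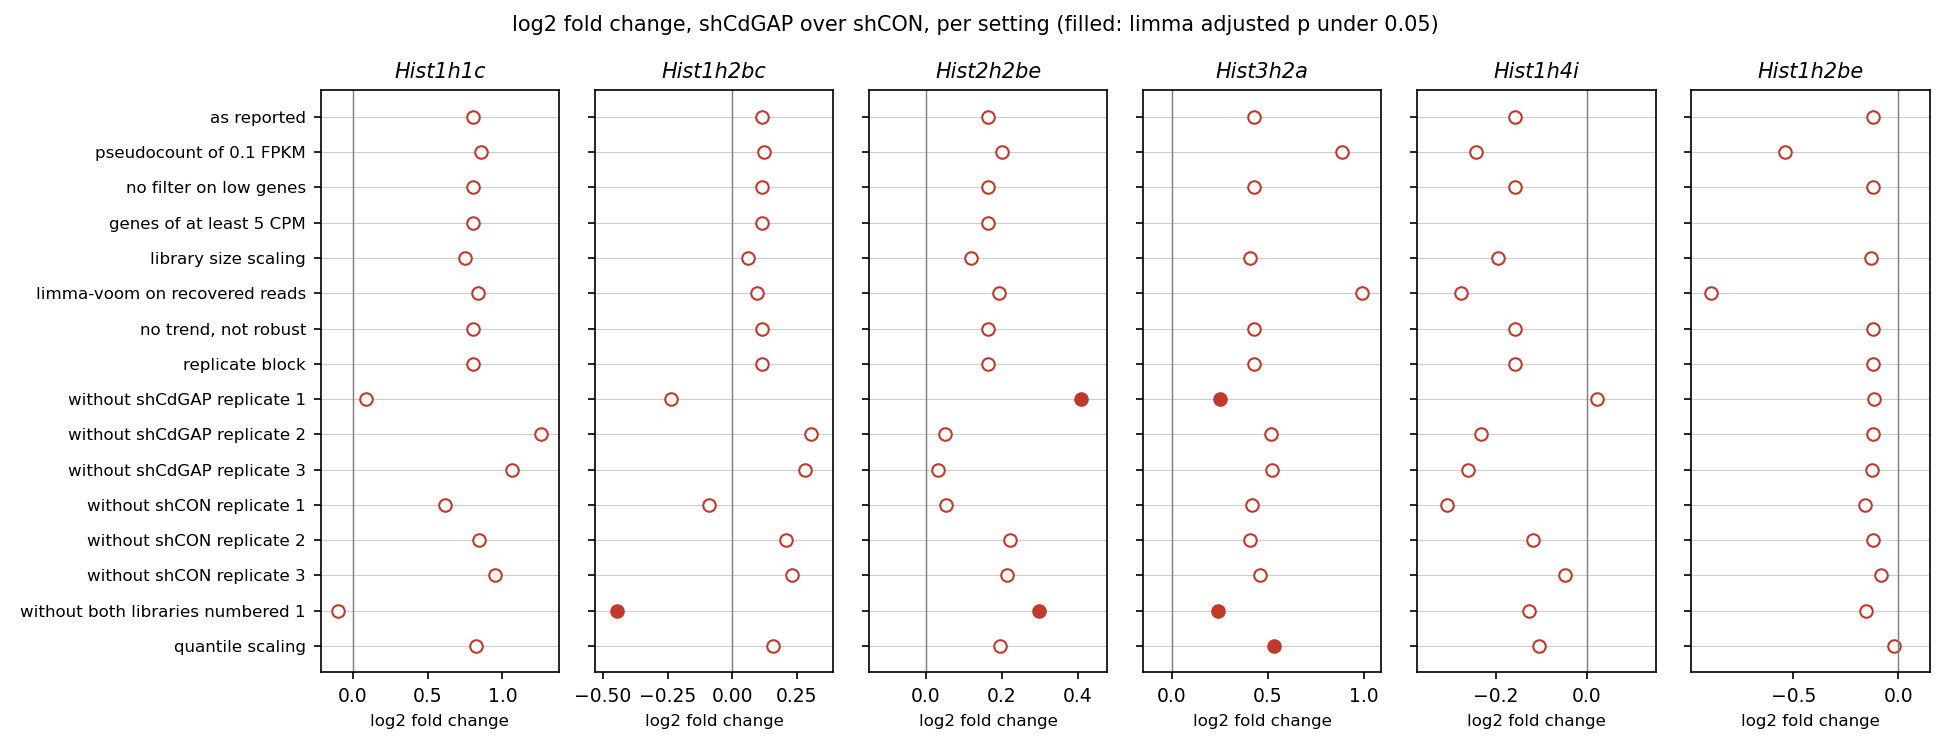
Log2 fold change of shCdGAP over shCON (horizontal, separate scales) for the 6 tested histone genes under each setting (vertical); a filled point has a limma adjusted p under 0.05. Filled points appear only where shCdGAP replicate 1 is left out, alone or with shCON replicate 1, and for Hist3h2a under quantile scaling.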

How the data were processed

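The authors deposited 1 table of FPKM values per library, already divided by size factors, with their own comparison per the file headers: a mean signal, p-values raw and adjusted, the log2 fold change, and scores for its error and test. Per the submitters' processing notes TopHat2 2.0.13, Trimmomatic, DESeq2 and featureCounts were used with build mm10. Strand handling is not given in the sources used here; antisense overlaps cannot be told apart. Whole reads were recovered from the FPKM steps (100% of values, tolerance 1e-06), and gene model lengths with 1 constant (tolerance 0.05 bases).

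Genes with at least 10 depth-scaled reads in 3 libraries and 15 reads in all (13483) were fitted with limma 3.58.1 in R 4.3.3 on log2(FPKM + 1), with trend and robust variance, 2-sided, Benjamini-Hochberg adjusted over all of them at 0.05. The step was tested on simulated data in which all genes had the same spread beyond counting error and no library stood apart. Values are means ± SD over 3 libraries. Python 3.11.15 and scipy 1.17.1 gave sums and exact intervals. Identifiers of 65 members matched GENCODE M21, and 59 promoters matched RefSeq.

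Members, gene lists and alternatives were chosen with earlier results of these data known. Named are members past the threshold, the 10 highest by FPKM, the highest of each class and those of the small clusters with 10 reads in a library, together with fixed genes of the histone pathway and leading genes of each list; the other members appear as ranges, and Hist1h2ac, Hist2h2ac and Trim17 as partners of these. Hist1h2be, a tested member outside this rule, and the members without reads were named after their values were seen.

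In deviations from the group means, the libraries numbered 1 correlated at 0.43 across groups. Those numbered 2 and 3 did so at 0.39 and 0.34. However, shCdGAP 2 correlated at 0.35 with shCON 3, and shCdGAP 3 at 0.27 with shCON 2. Deviations within a group cancel out, so libraries 2 and 3 tend to correlate across groups once those numbered 1 do. Their values therefore do not show pairs. Any pairing comes from the data, not the labels. The main fit did not use pairs, and its p-values take no account of them. Only the blocked alternative treated same-numbered libraries as pairs.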

Additional observations from a re-analysis of the deposited data

How the results depend on the processing

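There were 15 alternatives, of which some change linked settings together (trend and robust variance; scale and weights in limma-voom; both libraries numbered 1). Quantile scaling was chosen after seeing the data. Leaving out each library in turn gave 0 to 2 members higher, 0 lower in all 6 fits, a median member log2 fold change of -0.02 to 0.22 and 1237 to 5373 genes called among all tested. The 2 members and the 5373 genes came without shCdGAP replicate 1; 1476, 1724, 1237 and 1332 genes were called without shCdGAP replicate 2 and shCON replicates 1, 2 and 3. Without both libraries numbered 1 there were 2 members higher, 1 lower, a median of -0.11 and 6506 genes called. Quantile scaling gave 1 member higher (Hist3h2a, limma adjusted p = 0.047; range over all its alternatives 0.027 to 0.28). The fit with the replicate block called 2458 genes and 0 members, and changed no call on a member. Without a filter 57 members were fitted (16 above and 41 below 0), 0 were called against 11.2% of 22322 genes, 3 were at an unadjusted p under 0.05, and their median was -0.05; of at least 5 CPM only 3 could be fitted. Signs changed for Hist1h1c (-0.10 without both libraries numbered 1), Hist1h2bc (-0.24 without shCdGAP replicate 1, -0.09 without shCON replicate 1, -0.44 without both, up to 0.30 without shCdGAP replicate 2), Hist1h4i (0.022 without shCdGAP replicate 1, down to -0.31 without shCON replicate 1) and Slbp (0.18 without shCdGAP replicate 1, 0.076 without both, down to -0.57 without shCdGAP replicate 3). The cause was not tested. Hist3h2a had a log2 fold change of 0.99 and Hist1h2be of -0.89 with limma-voom on recovered reads, with no call. The 61 members that were not tested had a median of 5 reads over all libraries.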

Other observations

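The rule left out 3 rows with a histone cluster symbol, named here after their values were seen. Hist2h2bb, annotated as a lincRNA, had 6, 3 and 3 reads in shCdGAP and 11, 17 and 14 reads in shCON, so its groups did not overlap, and in the authors' deposited table its adjusted p is 0.032. The pseudogene rows Hist1h2aj and Hist3h2bb-ps had at most 2 and 3 reads in a library.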
